A study of Gallus gallus with 12 samples.

Results

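This account covers 6 genes of hypothalamic microglia whose level was lower in heat-conditioned chicks than in non-conditioned chicks under either injection, while lipopolysaccharide (LPS) moved them little. They were picked out of 11207 genes in the table. Chick (Gallus gallus) microglia were isolated by FACS from anterior hypothalamus pooled over 10 to 12 birds per library, and profiled on day 11 after hatching by bulk MARS-seq, which reads the 3′ ends of mRNA. The LPS Cond group had been kept at 39°C for 24 h from day 3 and was given LPS in the third ventricle on day 10. The LPS Non-Cond group was given LPS with no heat conditioning, the Saline Cond group had the heat and then saline, and the Saline Non-Cond group had saline alone. Each of the 4 groups held 3 libraries, 12 in all. All birds, the saline controls included, carried a brain injection made 24 h before the cells were taken, so no group shows microglia of an uninjected brain.

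Microglia are the resident macrophages of the brain, and they sense bacterial products such as LPS through Toll-like receptors. The anterior hypothalamus holds the centre that sets body temperature, and exposure of young chicks to heat while this centre matures is known to alter their later tolerance of heat. An early challenge can also leave macrophages and microglia in a changed state in which a later challenge meets a stronger or weaker response, often described as priming or tolerance.

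The choice was made on measured values. A gene's level was its CPM (its count scaled to a common library total), averaged over the 3 libraries of a group, and 5 was added before the log2. A member had a conditioning difference (Cond minus Non-Cond) of -0.5 or lower with saline and with LPS, and an LPS difference (LPS minus saline) smaller than 0.5 in size with and without conditioning. It also had to have at least 150 counts over the 12 libraries and to lie outside the 100 genes of highest mean CPM, which left 3899 genes that the rule could take. Since all 4 group differences entered the choice, the differences of the 6 genes are given as a description. The fit over all genes, given further on, holds the members too, and what it gives for them is likewise no independent test. In the order of the weaker of their conditioning differences the genes are called A to F here. Gene A is ENSGALG00000028602.3 and gene B is ENSGALG00000045176.1. The table pairs none of its identifiers with a gene name and no identifier matched the reference list, so no role, chromosome or sequence can be given for any of the 6, and the identifiers of genes C to F are not printed. For the same reason the labelled cell type was not checked against marker genes, and markers of other brain cells were not followed.

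Total counts were 451683 to 504861 in LPS Cond libraries, 300739 to 615505 in LPS Non-Cond libraries, 236219 to 963146 in Saline Cond libraries and 189180 to 510210 in Saline Non-Cond libraries. A floor of 3 counts corresponded to 3.11 to 15.9 CPM across libraries. Among the 6 genes, Saline Non-Cond replicate 3 stood apart from the other 2 libraries of its group in 4 of the 6 genes, where its level was nearer to the conditioned libraries. It was also the deepest library of that group, with 510210 counts against 315422 in replicate 1 and 189180 in replicate 2. Yet it had a count in only 8329 genes, against 8694 in replicate 1 and 7698 in replicate 2. LPS Cond replicate 2, of similar depth at 504861 counts, had a count in 9010 genes. Saline Non-Cond replicate 2 was the shallowest of all the libraries. Without replicate 3, the Saline Non-Cond level thus rests on the shallower libraries of the group. The members' conditioning and LPS differences that rest on Saline Non-Cond replicate 3 are given without it as well. Of the counts and measures of spread that rest on it, only some are.

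Lower levels after conditioning under both injections were uncommon in the table. With saline, 154 of the 3899 genes (3.95%) had a conditioning difference of -0.5 or lower, and with LPS 300 genes (7.69%) did. The 2 lists shared 16 genes, which is 10.4% of the saline list and 5.33% of the LPS list. The saline and LPS comparisons have no library in common. By the same limits, 10 of the 3899 genes (0.256%) were higher under both injections. Opposite directions were seen in 37 genes (0.949%) that were higher with saline and lower with LPS. They were also seen in 7 genes (0.18%) that were lower with saline and higher with LPS. The shared list is thus no sign that the injections agreed over the table. Of the 16 genes, 6 stayed within the limits on the LPS difference and are the members. The other 10 passed a limit on LPS, with a largest LPS difference of 0.51 to 2.86 in size. In 9 of those 10 genes the LPS Cond level was lower than the Saline Cond level by 0.5 or more, and in 1 gene it was higher by that much. The mirror image of the rule, higher by 0.5 or more with conditioning under both injections and within the LPS limits, took 5 genes. Members and mirror image together were thus 11 of 3899 genes, with nearly equal numbers in each direction.

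**Figure D1:**
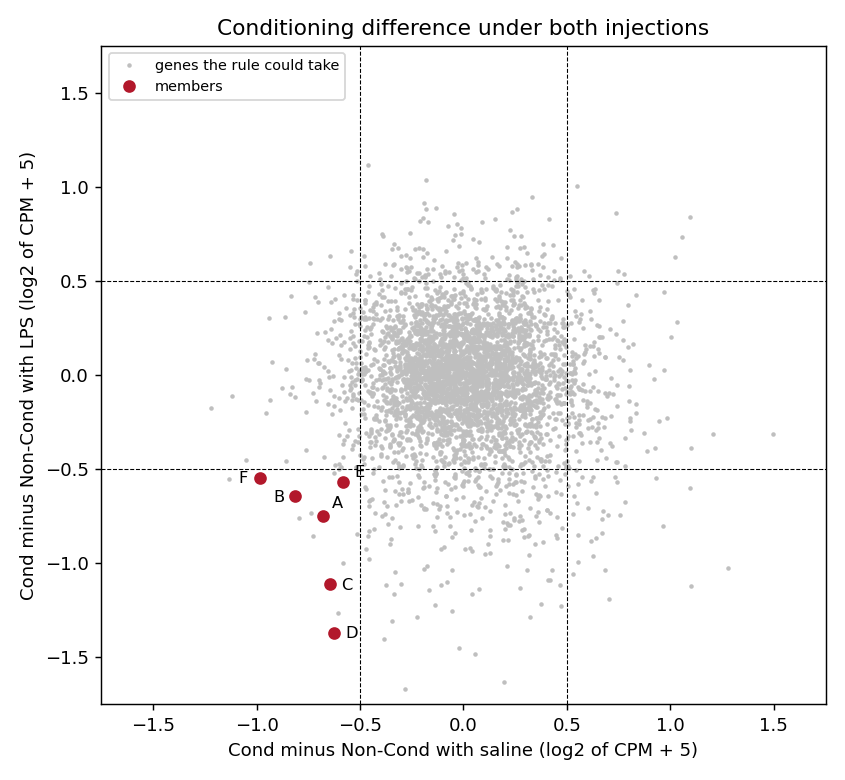
Conditioning difference (Cond minus Non-Cond, log2 of CPM + 5) with saline on the x axis and with LPS on the y axis, for the 3899 genes that the rule could take (grey) and the 6 members (red, with their letters); dashed lines mark the limits of 0.5 and 12 genes lie outside the axes. The members sit in the lower left corner, where 16 genes lie in all, and genes C and D reach lowest on the LPS axis.

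At the edges of the rule the genes ran on without a gap. The members just inside the conditioning limit were F, E and D, with weaker differences of -0.55, -0.57 and -0.63. Just outside it lay 3 genes within the LPS limits at -0.498, -0.49 and -0.49. On the LPS limit, gene C was nearest inside with a largest LPS difference of 0.46 in size. Genes F and D followed at 0.41 and 0.40, and the nearest genes outside had 0.51, 0.53 and 0.59.

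Gene A, ENSGALG00000028602.3, was the member with the strongest difference by the weaker of its 2 values. It had 44.8, 47.5 and 75.3 CPM in LPS Cond libraries, against 91.3, 114 and 86.5 CPM in LPS Non-Cond libraries (replicates 1 to 3). With saline it had 57.6, 59.3 and 60.2 CPM in Saline Cond libraries, against 127, 132 and 33.3 CPM in Saline Non-Cond libraries. The LPS groups did not overlap, whereas Saline Non-Cond replicate 3 lay below every conditioned library. Group means were 55.9 ± 16.8 CPM in LPS Cond and 97.2 ± 14.6 CPM in LPS Non-Cond, and 59.0 ± 1.31 CPM in Saline Cond and 97.4 ± 55.6 CPM in Saline Non-Cond (SD, n = 3). The conditioning difference was -0.75 with LPS and -0.68 with saline on the log2 scale of CPM + 5, and -1.07 with saline without Saline Non-Cond replicate 3. LPS differences were -0.07 in Cond and -0.004 in Non-Cond chicks. The second of these was -0.40 without Saline Non-Cond replicate 3. In bulk samples such as these, fewer cells of a type and less RNA per cell cannot be told apart.

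Gene B, ENSGALG00000045176.1, was the only one of the 6 genes in which all 6 conditioned libraries lay below all 6 non-conditioned libraries. It had 40.6, 41.6 and 26.6 CPM in LPS Cond libraries, against 56.7, 58.5 and 63.2 CPM in LPS Non-Cond libraries. In Saline Cond libraries it had 35.6, 42.3 and 43.6 CPM, against 63.4, 79.3 and 82.3 CPM in Saline Non-Cond libraries. The highest conditioned library, at 43.6 CPM, was below the lowest non-conditioned library, at 56.7 CPM, and Saline Non-Cond replicate 3 was the highest of the 12. Its mean was 36.2 ± 8.39 CPM in LPS Cond and 59.4 ± 3.36 CPM in LPS Non-Cond, and 40.5 ± 4.30 CPM in Saline Cond and 75.0 ± 10.2 CPM in Saline Non-Cond (SD, n = 3). These gave differences of -0.64 with LPS and -0.81 with saline, or -0.75 without Saline Non-Cond replicate 3. The LPS difference of gene B was -0.14 in Cond chicks and -0.31 in Non-Cond chicks. Such a full separation downward was found in 3 of the 3899 genes (0.0769%), and upward in 1 gene. The other 2 genes separated downward were not members, since their weaker conditioning differences were -0.44 and -0.32. In those genes the gap between the highest conditioned and the lowest non-conditioned library was 59.4 against 59.9 CPM and 150.5 against 154 CPM.

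Gene C had the highest CPM of the 6 genes, at rank 306 in the table, on a scale that counts 3′ ends and is not divided by transcript length. It had 307, 256 and 235 CPM in LPS Cond libraries, against 428, 931 and 382 CPM in LPS Non-Cond libraries. In Saline Cond libraries it had 322, 394 and 388 CPM, against 859, 645 and 229 CPM in Saline Non-Cond libraries. The conditioned libraries kept to a narrow band, while the non-conditioned libraries spread over 229 to 931 CPM, with Saline Non-Cond replicate 3 below all of the conditioned ones. Means were 266 ± 37.5 CPM in LPS Cond and 580.5 ± 304 CPM in LPS Non-Cond, and 368 ± 39.9 CPM in Saline Cond and 578 ± 320.2 CPM in Saline Non-Cond (SD, n = 3). The conditioning difference was -1.11 with LPS, or -0.60 without LPS Non-Cond replicate 2. With saline it was -0.64, or -1.02 without Saline Non-Cond replicate 3. Gene C was also the member nearest to the LPS limit, with an LPS difference of -0.46 in Cond chicks and 0.01 in Non-Cond chicks.

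Gene D differed most with conditioning after LPS, and a single library carried part of that. It had 61.9, 45.6 and 0 CPM in LPS Cond libraries, against 104, 74.7 and 123 CPM in LPS Non-Cond libraries. The 0 in LPS Cond replicate 3 came from no count in a library of 451683, where the floor of 3 counts stands at 6.64 CPM, while replicates 1 and 2 held 29 and 23 counts. In Saline Cond libraries gene D had 30.5, 42.3 and 67.5 CPM, against 25.4, 111 and 88.2 CPM in Saline Non-Cond libraries. The LPS groups did not overlap, and with saline the lowest of the 6 libraries was a non-conditioned one. The conditioning difference was -1.37 with LPS, or -0.85 without LPS Cond replicate 3, and -0.63 with saline, or -0.499 without Saline Non-Cond replicate 3. Its LPS differences had opposite signs, -0.34 in Cond and 0.40 in Non-Cond chicks.

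Genes E and F were the members of lowest CPM and resembled each other. Both had 15 and 9 counts in Saline Non-Cond replicates 1 and 2, while their counts differed in every other library. Whether they share reads was not tested. Gene E had 34.2, 27.7 and 42.1 CPM in LPS Cond libraries, against 66.1, 48.7 and 46.6 CPM in LPS Non-Cond libraries. With saline it had 15.3, 25.4 and 36.3 CPM in Saline Cond libraries, against 47.6, 47.6 and 27.4 CPM in Saline Non-Cond libraries. Its LPS groups were separated by a small gap (42.1 against 46.6 CPM), and its saline groups overlapped through Saline Non-Cond replicate 3. The conditioning difference of gene E was -0.57 with LPS, or -0.41 without LPS Non-Cond replicate 1. With saline it was -0.58, or -0.78 without Saline Non-Cond replicate 3 and -0.35 without Saline Cond replicate 1. Its LPS difference was positive in both states, 0.37 in Cond and 0.36 in Non-Cond chicks.

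Gene F had 23.5, 23.8 and 26.6 CPM in LPS Cond libraries, against 37.8, 47.1 and 29.9 CPM in LPS Non-Cond libraries. With saline it had 11.9, 16.9 and 22.8 CPM in Saline Cond libraries, against 47.6, 47.6 and 21.6 CPM in Saline Non-Cond libraries. As in gene E, replicate 3 was the low library of the Saline Non-Cond group, and with saline the groups overlapped only through it. Gene F rested on 153 counts in all, just above the minimum of 150, with 7, 4 and 22 counts in the Saline Cond libraries and 15, 9 and 11 in the Saline Non-Cond libraries. Summed over the Saline Cond libraries its level was 18.4 CPM (95% exact Poisson interval 12.7 to 25.9), and over the Saline Non-Cond libraries 34.5 CPM (24.0 to 48.0). These intervals cover counting error only. Summing gives deeper libraries more weight than the group means used by the rule. Summed levels in Saline Cond against Saline Non-Cond libraries were 59.2 against 80.8 CPM in gene A and 40.8 against 75.9 CPM in gene B. They were 367 against 503 CPM in gene C, 52.0 against 72.9 CPM in gene D and 27.9 against 37.4 CPM in gene E. With saline, in all members but gene B, the summed levels lay closer together than the group means. The conditioning difference of gene F was -0.55 with LPS, or -0.39 without LPS Non-Cond replicate 2. With saline it was -0.98, or -1.24 without Saline Non-Cond replicate 3 and -0.82 without Saline Cond replicate 1. The value of -0.98 was the strongest saline difference of the 6 genes. The LPS difference of gene F was 0.41 in Cond chicks and -0.02 in Non-Cond chicks.

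**Figure D2:**
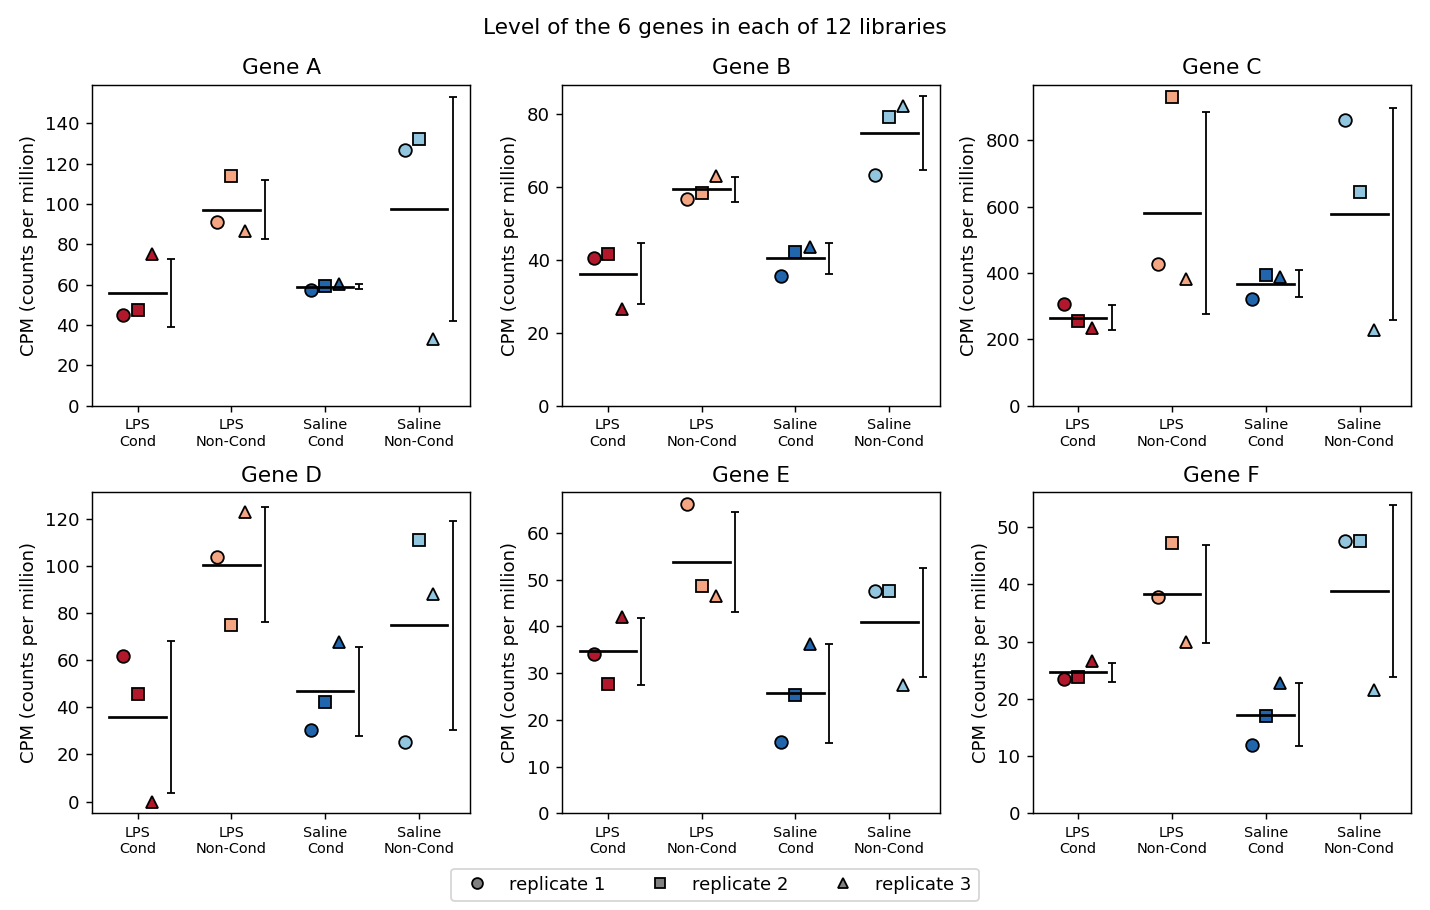
Level in CPM (y axis, linear) of genes A to F in each of the 12 libraries, by group on the x axis; marker shapes give the replicate, horizontal lines the group mean and vertical bars the SD of 3 libraries. Gene B shows no overlap between conditioned and non-conditioned libraries (up to 43.6 against 56.7 CPM and above), while Saline Non-Cond replicate 3 is the low library of its group in genes A, C, E and F.

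Across the 6 genes the groups given LPS were separated and the groups given saline mostly were not. Each of the 6 genes had its 3 LPS Cond libraries below its 3 LPS Non-Cond libraries, a separation found in 8.67% of the 3899 genes. With saline it held for gene B alone, and for 4.74% of the 3899 genes. Without Saline Non-Cond replicate 3 it held with saline for 5 of the 6 genes, all but gene D, and for 13.2% of the 3899 genes. Without that library, genes A, B, E and F had all 6 conditioned libraries below the 5 non-conditioned libraries left, as 0.539% of the 3899 genes did. That library was left out after its values had been seen. All of these counts follow in part from the rule, which used the same group means. The next counts use the midpoint of each gene's own conditioned and non-conditioned means, which the rule had set apart. Such counts were largely built into the choice, and nothing is read from them. In Saline Cond libraries, replicates 1 and 2 had all 6 genes below the midpoint of the conditioned and non-conditioned means, and replicate 3 had 5. The LPS Cond libraries had 5, 6 and 4 genes below it. Non-conditioned libraries had 1, 0 and 1 genes below it with LPS and 1, 0 and 4 with saline, the 4 being genes A, C, E and F in Saline Non-Cond replicate 3.

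The conditioning differences were next set beside a fit over all genes. An edgeR quasi-likelihood fit of the 12 libraries tested 5170 genes, the 6 members among them, with Benjamini-Hochberg adjustment over all 5170. With saline it called 0 genes at an adjusted p under 0.05 (0% of genes), and DESeq2 also called 0. At an unadjusted p under 0.05 edgeR had 256 of the 5170 genes. Where no gene differs, a share of about 0.05 of genes would pass that unadjusted threshold. With LPS edgeR called 0 genes (0%) and 340 at the unadjusted threshold, and DESeq2 called 1. Over both injections together, edgeR called 1 gene (0.0193%), which was lower with conditioning, and 241 at the unadjusted threshold, and DESeq2 called 2. None of the 6 members was among the genes called by edgeR or DESeq2 in these 3 comparisons. Without Saline Non-Cond replicate 3, edgeR tested 5413 genes and called 16 with LPS and 6 over both injections, all lower with conditioning. These included gene C with LPS and genes A and C over both. With any other single library left out, edgeR called no member in these comparisons. Saline Non-Cond replicate 3 was left out after its values had been seen, and the rule used these contrasts, so nothing is read from the calls without it.

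At the unadjusted threshold the fit had 4 of the 6 members (A, B, C and D) lower with LPS, where 4.22% of all genes were, and 2 members (B and F) lower with saline, where 2.71% were. Over both injections it had 6 of 6, where 2.92% of all genes were lower. The rule used these contrasts, so a high share among members was built into the choice and nothing is read from it. Averaged over both injections, the fitted log2 differences and their approximate standard errors were -0.70 ± 0.24 for gene A, -0.80 ± 0.20 for gene B and -0.87 ± 0.22 for gene C. They were -1.01 ± 0.38 for gene D, -0.58 ± 0.25 for gene E and -0.84 ± 0.27 for gene F. Without Saline Non-Cond replicate 3 they ran from -1.06 ± 0.17 for gene C to -0.68 ± 0.26 for gene E.

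The gene that edgeR called over both injections was not a member because it was also lower with LPS after conditioning. Its mean was 336 CPM in LPS Cond and 677 CPM in LPS Non-Cond, and 542 CPM in Saline Cond and 813 CPM in Saline Non-Cond. The fitted difference was -0.80 ± 0.13 (SE, edgeR adjusted p = 0.0207). Its LPS difference was -0.68 in Cond chicks and -0.26 in Non-Cond chicks, and the first of these lay outside the limit.

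That LPS left the 6 genes unmoved is known only within the error of the libraries. By edgeR the LPS difference ranged from -0.45 to 0.47 in Cond chicks, with standard errors of 0.29 to 0.56, and from -0.40 to 0.42 in Non-Cond chicks, with standard errors of 0.27 to 0.52. A limit of 0.5 is of the size of these errors. The 6 genes fell on either side of 0, with medians of -0.11 in Cond and 0.001 in Non-Cond chicks. Over all 3899 genes the medians were -0.004 and 0.01. Without Saline Non-Cond replicate 3 the LPS differences in Non-Cond chicks were -0.40 in gene A, -0.24 in gene B, -0.37 in gene C, 0.53 in gene D, 0.16 in gene E and -0.28 in gene F. Their median was then -0.26, against -0.03 over all 3899 genes, and gene D lay past the limit.

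The rule set no limit on how much the pools of a group differed, and here the 6 genes were unlike each other. The same libraries gave the group means of the rule, so this spread is not independent of the choice. The variance of the counts within groups was compared with that expected from counting error alone. It was 0.43 times that expectation in gene B, 1.13 times in gene F and 1.44 times in gene E. It was 4.42 times in gene A, 7.08 times in gene D and 37.6 times in gene C. The median over the 3899 genes was 1.70. Genes B, E and F had a ratio below this median, and gene C stood above 99.6% of the 3899 genes. Without Saline Non-Cond replicate 3 the ratio was 0.957 in gene A, 8.08 in gene D and 20.7 in gene C, with a median of 1.54 over the 3899 genes. This ratio grows with the count of a gene, and gene C had 2370 counts. By the dispersion that edgeR estimated, gene D ranked highest of the 6, above 99.1% of the 5170 tested genes. Gene C was above 87.8%, gene A above 77.8%, gene E above 58.8%, gene F above 51.2% and gene B above 16.0%. By that measure only gene B lay below the median, and genes E and F did not.

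Deviations from the group mean showed which libraries moved together. Saline Non-Cond replicate 3 deviated by -1.21 in gene A, -1.12 in gene C, -0.46 in gene E and -0.66 in gene F on the log2 scale, but by 0.13 in gene B and 0.43 in gene D. Saline Non-Cond replicate 1 deviated by -1.18 in gene D and by 0.76 in gene C. LPS Cond replicate 3 deviated by -2.36 in gene D and -0.36 in gene B. Over the 12 libraries the deviations of genes B and D correlated at a Pearson r of 0.95, and at 0.87 without LPS Cond replicate 3. Genes C and F correlated at 0.85, genes A and F at 0.83, genes E and F at 0.80 and genes A and C at 0.78. Without Saline Non-Cond replicate 3 these became 0.61 for C and F, 0.47 for A and F, 0.72 for E and F, and 0.23 for A and C. Genes A and B correlated at -0.52 and genes A and D at -0.44 over the 12 libraries. Without LPS Cond replicate 3 these were -0.45 and -0.33, and without Saline Non-Cond replicate 3 they were -0.70 and -0.79. Of the 15 pairs, 7 were positive, with a median of -0.14, and without that library 9 were positive, with a median of 0.04. These values describe 12 libraries that share depth and pools across genes, and the genes at or near the lowest counts carry counting error into them.

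**Figure D3:**
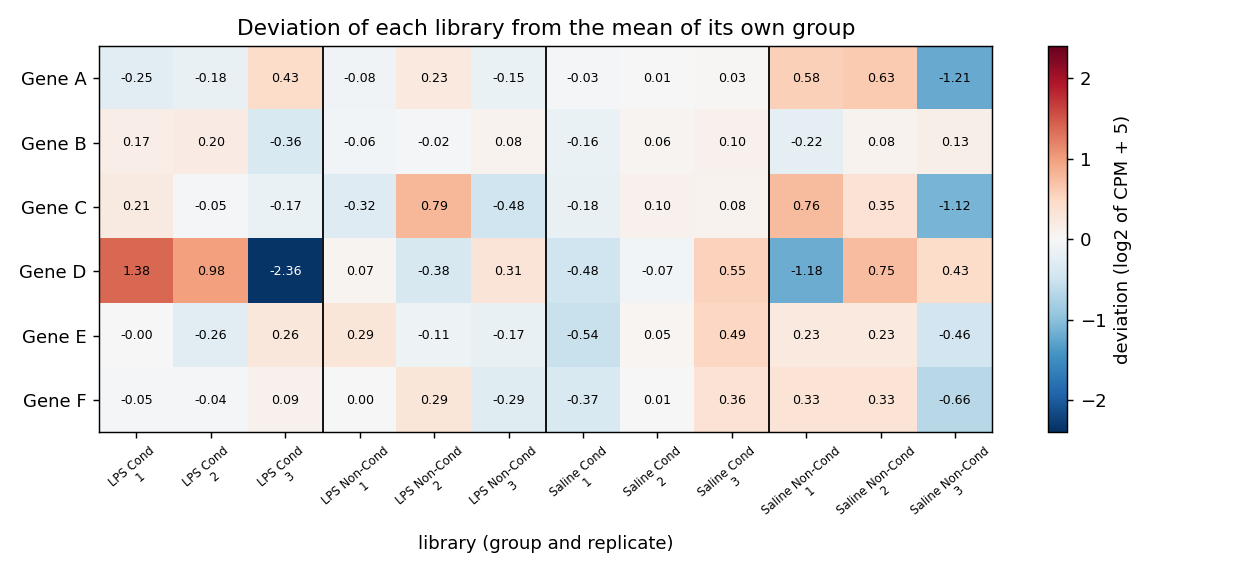
Deviation of each library from the mean of its own group (log2 of CPM + 5, colour and printed value) for genes A to F in rows and the 12 libraries in columns, grouped by treatment. Saline Non-Cond replicate 3 is below its group in genes A, C, E and F and above it in genes B and D, and the lowest value is -2.36 for gene D in LPS Cond replicate 3.

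Membership depended on single libraries to a different degree in each gene. With each library left out in turn, gene B still met the limits in 11 of 12 cases, genes A and F in 10, gene C in 8, and genes D and E in 6. The conditioning difference of gene B with saline ranged from -0.91 to -0.74 over these cases, and with LPS from -0.74 to -0.48. Gene A with saline ranged from -1.07, without Saline Non-Cond replicate 3, to -0.41, without Saline Non-Cond replicate 2. Gene C with saline ranged from -1.02, without Saline Non-Cond replicate 3, to -0.25, without Saline Non-Cond replicate 1. Gene D with saline was -0.25 without Saline Non-Cond replicate 2. None of the 12 differences of the 6 genes changed sign when a library was left out. All 12 had been chosen at -0.5 or lower on the same group means, so this was largely fixed in advance. Under 9 other settings of the rule, given further on, the order of the genes was another one. Gene A met the limits in 9 of them, gene D in 8, genes B and C in 7, gene E in 6 and gene F in 5. Gene B was lost with group medians and with a minimum of 300 counts.

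**Figure D4:**
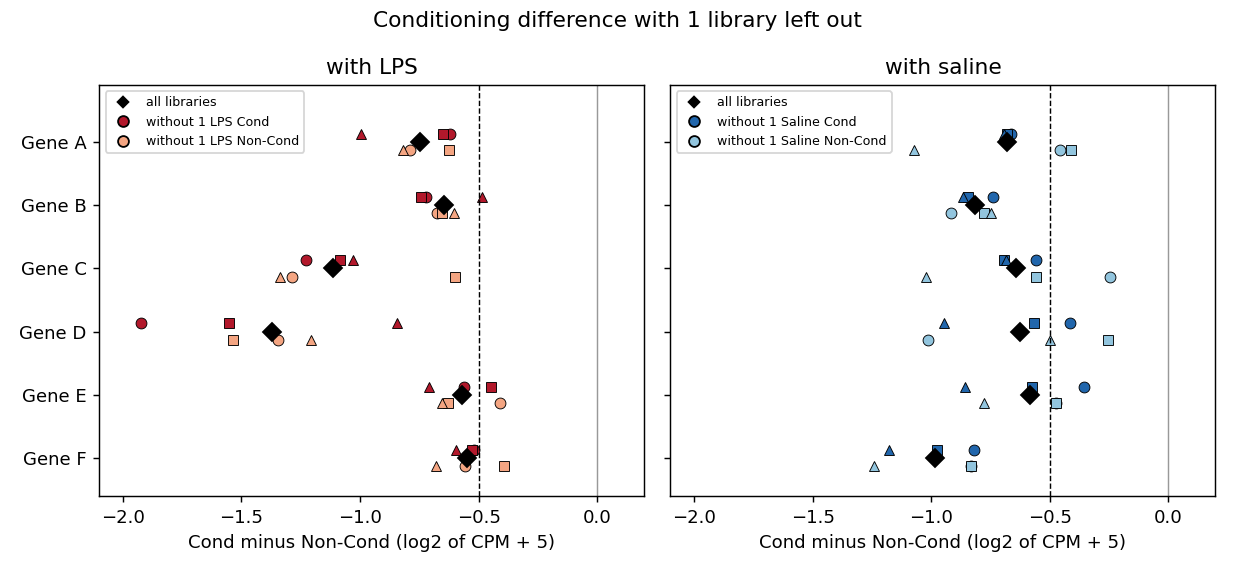
Conditioning difference (Cond minus Non-Cond, log2 of CPM + 5, x axis) of genes A to F with LPS (left) and with saline (right), from all libraries (black diamonds) and with 1 library of the compared groups left out (coloured, circle, square and triangle for replicates 1, 2 and 3). The dashed line is the limit of -0.5, which points of genes A, C, D and E cross with saline, at up to -0.25, and points of genes B, E and F cross with LPS; no point reaches 0.

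The number of genes that the rule took depended on single libraries as well. It was 25 in place of 6 without Saline Non-Cond replicate 3, with 5 of the 6 members among them. It was 14 without LPS Non-Cond replicate 3, 12 without Saline Cond replicate 2, and 11 without Saline Cond replicate 3 as without LPS Cond replicate 3. The mirror image of the rule took 10, 9, 11, 11 and 6 genes in these cases. In 3 cases the order turned, with 5 genes lower and 16 higher without Saline Non-Cond replicate 1, 7 lower and 13 higher without LPS Non-Cond replicate 2, and 6 lower and 7 higher without Saline Non-Cond replicate 2.

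**Figure D5:**
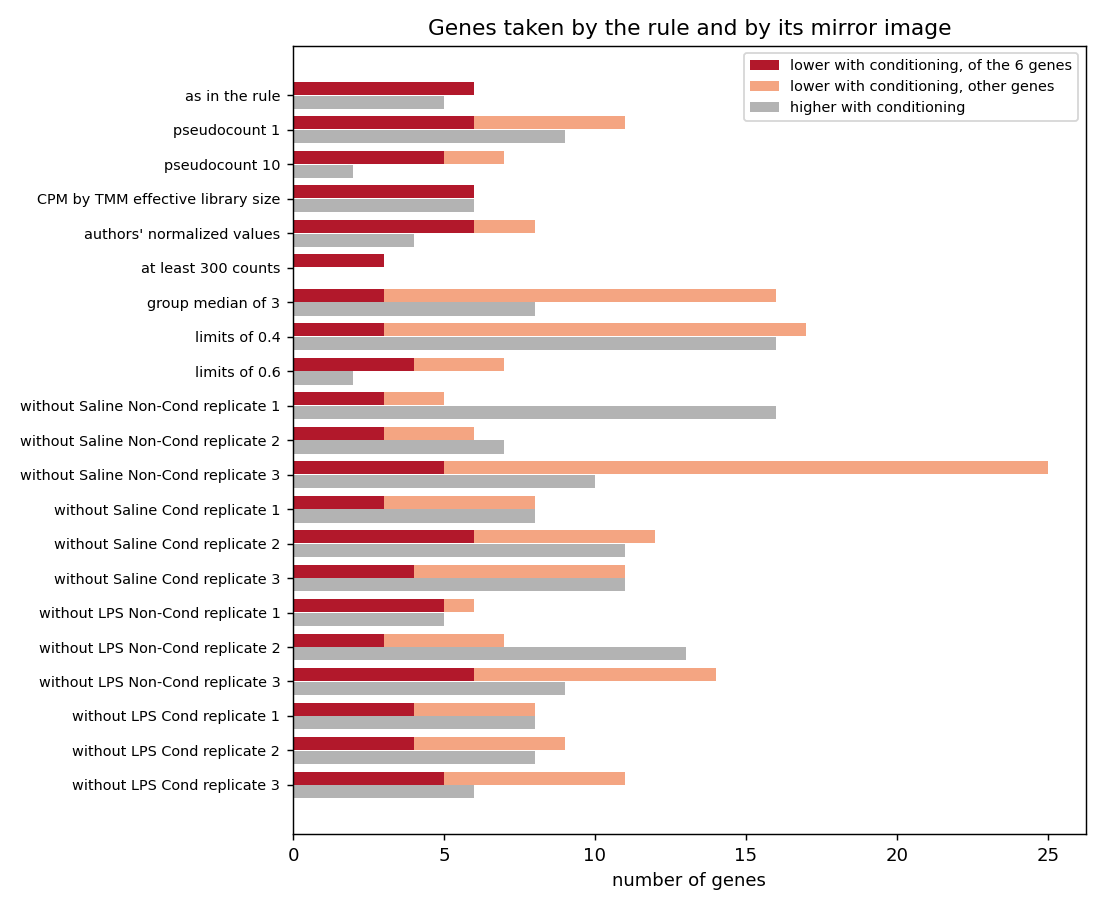
Number of genes (x axis) taken by the rule, split into the 6 members and other genes, and by its mirror image (higher with conditioning), under the settings on the y axis. As in the rule there are 6 and 5 genes, and the longest bar is the 25 genes without Saline Non-Cond replicate 3; the setting without a minimum count, with 101 and 53 genes, is left off the plot.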

How the data were processed

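The authors deposited raw counts per gene and library for 11207 genes, per the file headers, and beside them a normalized signal. Each deposited signal value is the count multiplied by a factor that is constant within a library, from 1.13 to 6.25. The build galGal5 and the tools HTSeq, STAR, cutadapt and DESeq2 are credited to the submitters' processing notes. Versions, the origin of the factors, the strand setting and any use of molecular identifiers were not given in the sources used here, so counts may be reads or molecules, and overlapping or near-identical genes are uncertain. Per the labels, 15 ng of RNA entered each library and about 25 M reads of 100 bp were sequenced.

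CPM were computed on the column sums of the counts. The test was one edgeR 4.0.16 quasi-likelihood fit in R 4.3.3 of all 12 libraries (filterByExpr with a minimum count of 10, TMM, 1 mean per group, 2-sided). A run on simulated data, with the same spread set for every gene, checked the code only. It does not show how well differences of the size given here would be found. DESeq2 1.42.0, RLE factors, other filters, a replicate block and leaving out each library were alternatives. Replicates are separate pools as far as the labels say.

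The members and the lists were chosen with earlier results of these data known. Genes were to be named by the weaker conditioning difference, by separation of the groups, by CPM and by list. With 0 of 11207 identifiers matched to the 25635 reference genes, the 20 planned gene lists could not be applied and 2 identifiers are printed. Gene B is the only separated member, and gene A, first by rank, was added after its values were seen.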

Additional observations from a re-analysis of the deposited data

How the results depend on the processing

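The rule took 6 genes in the report. It took 11 with a pseudocount of 1, 3 with a minimum of 300 counts, 101 with no minimum count, 16 with group medians and 17 with limits of 0.4, and leaving out a library gave 5 to 25. With TMM scaling, the authors' normalized values, a pseudocount of 10 and limits of 0.6 it took 6, 8, 7 and 7. Of the 6 members, the medians, the limits of 0.4 and the minimum of 300 counts kept 3 each, the limits of 0.6 kept 4, a pseudocount of 10 kept 5, and a pseudocount of 1, no minimum, TMM and the authors' values kept 6. When a library was left out, the count minimum and the 100 highest genes were kept from all 12.

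Conditioning with saline called 0 genes, and 8 with no filter on low counts, with a range of 0 to 0 when single libraries were left out. For conditioning with LPS, also at 0, the count was 1 in DESeq2, 64 with no filter and 0 to 16 with a library left out. Conditioning over both injections, with 1 gene, gave 2 in DESeq2, 37 with no filter (13 higher, 24 lower) and 0 to 6 with a library left out, the 6 without Saline Non-Cond replicate 3 and 3 without Saline Non-Cond replicate 1. Without a filter 10867 genes were tested, and genes C and D were among the 64 called with LPS and the 37 called over both injections. The cause of these moves was not tested. With the replicate number as a block, edgeR called 0 genes with saline, 2 with LPS and 2 over both injections, none of them members. Same-numbered libraries of different groups correlated at -0.11 to 0.13 in their deviations (median 0.02), with 2 of 18 pairs over 0.1. Libraries of different groups and numbers correlated at -0.16 to 0.13 (median -0.02), with 2 of 36 pairs over 0.1. Among the 12 libraries, 7 correlated best with a library of their own number. Whether same-numbered libraries share a batch was not tested.

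The members' conditioning differences had 120 values under alternatives of the scale or of the compared libraries. Of these, 119 moved by less than the SD between replicates, 1 moved by more and 0 changed sign. Leaving out 1 of 3 libraries can hardly shift a group mean by more than this SD, so the count says little on how stable the differences are. The 119 include gene C with saline, which went from -0.64 to -0.25 without Saline Non-Cond replicate 1. Another 72 values left out a library outside the comparison and were fixed. Genes of 153 to 392 counts, which all members but gene C are, have 0 to 70 counts in each library, and that depth limits how finely their differences are resolved.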
